A study of Mus musculus with 12 samples.

Results

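The transcriptome of mouse corneas that had been injured with benzalkonium chloride (BAK) and given UCPRP was compared with that of uninjured corneas, to see what still differed. The comparison took the 3 UCPRP libraries and the 3 Control libraries of a series of 12, and all 16124 genes that passed a filter on low counts, out of 19702 in the table. BAK is a detergent-like preservative of eye drops. UCPRP is described in the series title only as derived from cord blood, and the labels do not expand its name. Each UCPRP eye received 5 µl of 0.2% BAK once a day over 14 days, and UCPRP at 20% in drops of 5 µl, 3 times daily over 10 days. Vehicle corneas, another 3 libraries used here for values set beside those of UCPRP, received the same BAK and are labelled as untreated. The remaining 3 libraries, UCS, received the same BAK and UCS at 20% in drops of 5 µl, 3 times daily over 10 days. The labels do not expand that name either. UCS values are not described here, but the tests drew their estimate of spread from all 12 libraries, UCS included. Control corneas had neither injury nor treatment. Whether UCPRP was given during or after the days of BAK, the time of harvest, and the strain, sex and age of the mice are also not given in the sources used. Every library pooled 6 corneas, from 3 mice. The replicates are therefore pools, and the p-values below measure the spread between pools.

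The surface of the cornea is a stratified epithelium without goblet cells whose differentiated layers make keratin 12 and large amounts of soluble enzymes such as aldehyde dehydrogenase. It is renewed from the limbus, the ring where cornea meets conjunctiva. The conjunctiva is a mucosal epithelium with goblet cells that secrete gel-forming mucins. Below the epithelium lie the collagenous stroma with its keratocytes, a layer of endothelial cells, and a dense supply of sensory nerve endings. The healthy cornea holds no blood vessels and few white cells, and injury brings in neutrophils and then macrophages.

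The 6 libraries were of like depth. Totals were 18.85 to 19.18 M estimated counts in UCPRP and 18.99 to 20.44 M in Control, and a gene with no count in a library may still have up to 3 counts, or 0.154 to 0.16 CPM (counts per M counts of the library) in UCPRP and 0.154 to 0.178 CPM in Control. CPM values are per library and are not divided by gene length. They compare libraries for a gene, and not genes with each other. The keratin 12 transcript, which marks corneal epithelium, reached 15900 to 32900 CPM in Control. Genes of neighbouring tissues were also present. Lens genes made up 0.0547% to 3.45% of counts in UCPRP and 0.0786% to 1.72% in Control, and retina genes made up 0.594% to 1.87% in UCPRP and 0.354% to 1.18% in Control. Dbp, an output gene of the circadian clock, stood at 141 to 212 CPM in the 3 UCPRP libraries, at 238 and 280 CPM in Control replicates 1 and 2, and at 21.9 CPM in Control replicate 3. Because whole corneas were sequenced, fewer cells of a type and less RNA per cell cannot be told apart.

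After UCPRP, 1671 genes still differed from Control at an adjusted p under 0.05 (quasi-likelihood test of edgeR, adjusted by Benjamini-Hochberg), which is 10.4% of the genes tested. Of these, 854 (5.3%) were higher and 817 (5.07%) were lower in UCPRP. Small differences were the most frequent. In 395 of the higher and 485 of the lower genes the log2 fold change was under 1 in size, while 26 higher and 14 lower genes differed by 5 or more. Among genes with at least 5 CPM in the higher group, the losses of largest size included the surface epithelial genes Slurp1, Lypd2 and Krt12, and the gains of largest size included the mucosal secretory genes Gp2, Muc5ac and Tff1. The median log2 fold change over all genes tested was 0.04, and the ranges of the UCPRP and Control libraries did not overlap in 4545 genes, or 28.2%.

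**Figure D1:**
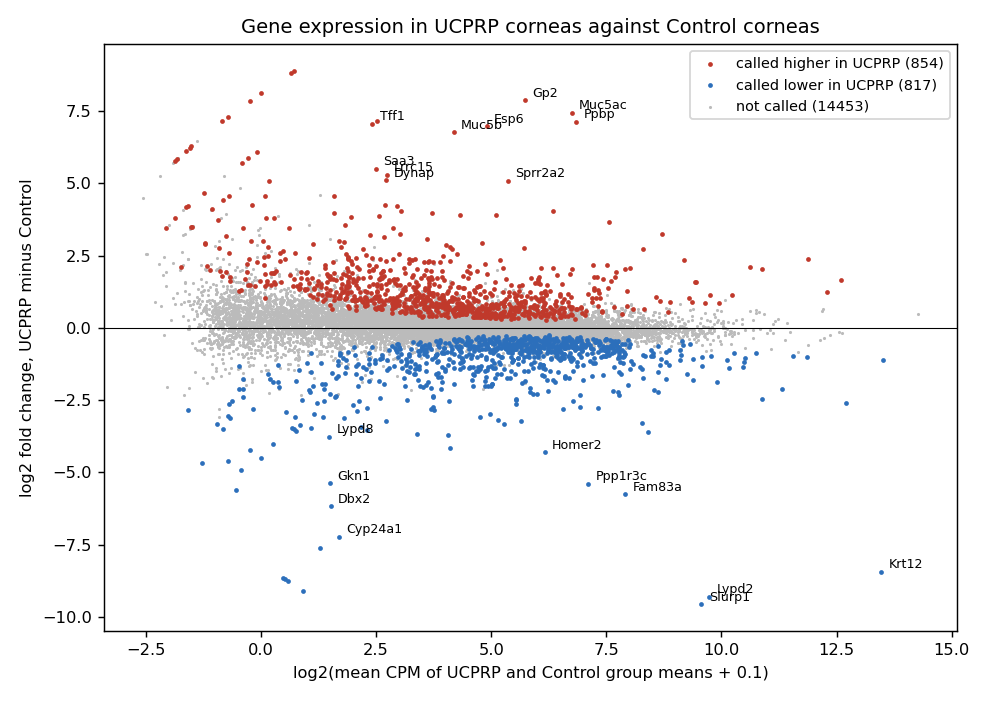
Each point is a gene, with log2 of the mean of the UCPRP and Control group means (CPM plus 0.1) on the horizontal axis and the log2 fold change of UCPRP over Control on the vertical axis, red for the 854 genes called higher, blue for the 817 called lower and grey for the rest. The labelled genes are the largest called changes each way with at least 5 CPM in the higher group, with Slurp1 at -9.55 and Gp2 at 7.87 at the ends.

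The same fit made no call between UCPRP and Vehicle in either direction (0% of genes). At an unadjusted p under 0.05, 518 genes were higher and 1054 lower in UCPRP than in Vehicle. DESeq2 called 6 higher and 139 lower, limma-voom called 0 in each direction, and edgeR without Vehicle replicate 3 called 19 higher and 176 lower. Vehicle differed from Control in 1545 genes higher (9.58%) and 1116 genes lower (6.92%), or 16.5% of genes in all. UCPRP and Vehicle share the Control libraries in these comparisons, so their values are set side by side below without a measure of overlap. Vehicle replicates 1 and 2 had Dbp at 14.7 and 25.9 CPM, against 163 CPM in Vehicle replicate 3. A fit with clock phase as a term also called 0 genes each way between UCPRP and Vehicle, with 194 higher and 551 lower at an unadjusted p under 0.05.

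Many genes of the differentiated corneal surface were lower in UCPRP than in Control. The list of corneal epithelium held 19 tested genes, of which 10 fell and 0 rose (52.6% called, against 10.4% of all genes), with a median log2 fold change of -1.04 over the list against 0.04 over all genes. This and the other gene lists were chosen with earlier results of these data known. Their counts and medians therefore describe the members and do not test a theme. Their summed level was 10030 to 12840 CPM in UCPRP, 8322 to 9701 CPM in Vehicle and 37140 to 72080 CPM in Control. The list's median difference between UCPRP and Vehicle was 0.11 on the log2 scale, and 5 of its 19 genes had the lower mean in UCPRP.

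Krt12 (gene ID 268482, chr11:99415664-99422593 in GRCm38.p6), the keratin of differentiated corneal epithelial cells, had 186, 7.55 and 3.29 CPM in UCPRP replicates 1 to 3, 9.19, 7.18 and 23.9 CPM in Vehicle, and 18900, 32900 and 15900 CPM in Control. Replicate 1 of UCPRP thus had more of this transcript than any Vehicle library, yet all UCPRP values lay far below the lowest Control value. The log2 fold change of UCPRP over Control was -8.43 (SE 1.56, adjusted p = 0.00592 by edgeR). Without UCPRP replicate 1 it was -12.02, and with only the 8 libraries of high Dbp the adjusted p for Krt12 was 0.0566, which missed the threshold. The promoter of Krt12 is shown because its transcript marks the tissue. RefSeq gives 250 bases before to 50 bases after the start of a transcript on the minus strand of GRCm38.p6 at chr11:99422210-99422509, with the capitals marking a TATAAA match 29 to 24 bases before that start, which lies inside the outer end of the gene as given above.
Krt12: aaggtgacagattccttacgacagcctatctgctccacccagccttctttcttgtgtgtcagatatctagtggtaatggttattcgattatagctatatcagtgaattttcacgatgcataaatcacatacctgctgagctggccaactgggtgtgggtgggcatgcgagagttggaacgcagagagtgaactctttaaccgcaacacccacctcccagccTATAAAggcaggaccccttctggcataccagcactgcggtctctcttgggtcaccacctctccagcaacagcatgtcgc
The letters TATAAA, sought on both strands, stood in 8.34% of the 16168 promoter windows of all genes tested, in 13.2% of those of genes called higher and in 8.4% of those of genes called lower.

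Slurp1 and Lypd2, small Ly6-type proteins of surface epithelium, were nearly gone as well. Slurp1 had 6.03, 0.0513 and 0 CPM in UCPRP, 0.516, 0.244 and 1.07 CPM in Vehicle, and 1340, 2110 and 1090 CPM in Control (log2 fold change of UCPRP over Control -9.55, SE 1.26, adjusted p = 0.00084). Lypd2 had 8.06, 0.103 and 0 CPM in UCPRP, 0.465, 0.195 and 0.817 CPM in Vehicle, and 1410, 2370 and 1320 CPM in Control (-9.29, SE 1.29, adjusted p = 0.00113). In both genes UCPRP replicate 1 again had the highest UCPRP value. Fam83a, which encodes a signalling adaptor, stood at 14.2, 5.8 and 6.22 CPM in UCPRP and at 438, 622 and 360 CPM in Control (-5.76).

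Enzymes and a channel of the epithelium fell less far. Aldh3a1, the abundant aldehyde dehydrogenase of the cornea, had 2170, 2040 and 1410 CPM in UCPRP, 916, 654 and 1490 CPM in Vehicle, and 10200, 17400 and 6640 CPM in Control (log2 fold change of UCPRP over Control -2.61, SE 0.44, adjusted p = 0.00334). Tkt, which encodes transketolase of the pentose phosphate pathway, had 1010, 862 and 1020 CPM in UCPRP, 673, 600 and 726 CPM in Vehicle, and 3980, 5460 and 2990 CPM in Control (-2.10, adjusted p = 0.000475). Aqp5, the water channel of the corneal surface, averaged 575 ± 130 CPM in UCPRP, 348 ± 139 CPM in Vehicle and 3188 ± 1400 CPM in Control (SD, n = 3 each; -2.47, adjusted p = 0.00215). For Tkt every UCPRP library was above every Vehicle library and below every Control library. Its difference between UCPRP and Vehicle was 0.53 on the log2 scale (SE 0.24, adjusted p = 0.505) and did not pass the test.

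Of 27 tested genes of glycolysis, glycogen and pentose phosphate 3 fell (11.1%, against 10.4% of all genes) and 0 rose. Ppp1r3c, which targets protein phosphatase to glycogen, had 6.08, 6.26 and 6.89 CPM in UCPRP, 3.15, 8.4 and 6.23 CPM in Vehicle, and 237, 306 and 263 CPM in Control (log2 fold change of UCPRP over Control -5.39, SE 0.30, adjusted p = 8.53e-06). Pygl, a glycogen phosphorylase, fell by 1.74, and its call was lost with only the 8 libraries of high Dbp (adjusted p = 0.0828 by edgeR). The 24 members other than Ppp1r3c, Pygl and Tkt were not called, and the median of the list was 0.18. Homer2, which encodes a scaffold protein, stood at 5.71, 7.96 and 7.04 CPM in UCPRP and at 129, 164 and 114 CPM in Control (-4.30, adjusted p = 8.53e-06). Cyp24a1, the vitamin D 24-hydroxylase, had 2 counts in the UCPRP libraries together and 343 in the Control libraries, a ratio of 0.00562 (95% interval 0.000678 to 0.0205, counting error only), and 0 counts in Vehicle.

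Most desmosome genes fell with them. Of 15 tested desmosome genes 9 fell and 0 rose (60% called, against 10.4% of all genes, median -0.87), and 5 fell without UCPRP replicate 2 or without UCPRP replicate 3. Dsp, which encodes desmoplakin, the link from desmosome to keratin, had 890, 888 and 853 CPM in UCPRP, 1370, 1020 and 936 CPM in Vehicle, and 1790, 2410 and 1780 CPM in Control (log2 fold change of UCPRP over Control -1.19, SE 0.18, adjusted p = 0.00204). The UCPRP libraries were the lowest of the 3 groups, and their ranges met neither of the others. The desmosomal cadherin Dsc3 (-1.51) and the plakophilin Pkp3 (-1.15) also fell, as did Dsg1a (-3.59), whose reads may be shared with near-identical neighbours. Of 20 tight and adherens junction genes 3 fell, among them Cgn (-0.70) and Nectin4 (-0.58), and Cldn8, a claudin, rose (1.56). These calls made up 20% of that list, against 10.4% of all genes. Col17a1, the transmembrane collagen of hemidesmosomes, had 326, 246 and 320 CPM in UCPRP and 1210, 988 and 905 CPM in Control (-1.80, adjusted p = 0.000761). Lamb3, a chain of the laminin that anchors epithelium, rose (1.14) while the integrin subunit Itga2 fell (-2.0) and Itga5 rose (0.98). Of the 18 genes of the hemidesmosome, integrin and laminin list 2 rose and 3 fell (27.8%, against 10.4% of all genes), and 1 fell without UCPRP replicate 2 or Control replicate 1. The call of Itga2 was lost on leaving out UCPRP replicate 1 or 2 or any Control library, and without UCPRP replicate 2 or 3 0 tight and adherens junction genes fell, with 1 without Control replicate 2.

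Most genes of the conjunctival and goblet cell list were higher after UCPRP. Of its 18 tested genes 13 rose, 0 fell and 5 were not called (72.2% called, against 10.4% of all genes), with a median of 2.0. In 14 the UCPRP and Control ranges did not overlap, where 28.2% of all genes had no overlap. The summed level was 15350 to 19950 CPM in UCPRP, 14130 to 20450 CPM in Vehicle and 2913 to 6663 CPM in Control. That sum follows the most abundant members of the list. The goblet cell genes Muc5ac, Muc5b, Tff1 and Gp2, described next, are a small part of it.

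Muc5ac (gene ID 17833, chr7:141788958-141819227), the gel-forming mucin of goblet cells, had 163, 174 and 304 CPM in UCPRP, 655, 457 and 519 CPM in Vehicle, and 0.412, 0.949 and 2.33 CPM in Control. The log2 fold change of UCPRP over Control was 7.42 (SE 0.55, adjusted p = 5.94e-05), and 8.30 without Control replicate 3. Muc5b, a second gel-forming mucin, had 31.8, 34.9 and 40.9 CPM in UCPRP, 226, 161 and 73.4 CPM in Vehicle, and 0.154, 0.356 and 0.466 CPM in Control (6.76, adjusted p = 9.77e-05). For both mucins the 3 groups formed separate ranges with UCPRP in the middle. The differences of UCPRP from Vehicle were -1.35 (SE 0.40, adjusted p = 0.359) for Muc5ac and -2.09 (SE 0.39, adjusted p = 0.331) for Muc5b, and DESeq2, unlike edgeR, called Muc5b lower (adjusted p = 0.000608).

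Other secretory genes behaved likewise. Tff1, a trefoil peptide packed with mucin, rose to 9.92, 12.9 and 8.38 CPM in UCPRP, against 0, 0.119 and 0.104 CPM in Control. In both mucins and in Tff1 every Vehicle library was above every UCPRP library. Gp2, a glycoprotein of mucosal epithelium, had 71.9, 135 and 112 CPM in UCPRP and 0.0515, 0.356 and 0.932 CPM in Control (7.87, adjusted p = 5.94e-05, and 9.05 without Control replicate 3). Spdef, the transcription factor of goblet cell differentiation, rose by 2.53 on the log2 scale (adjusted p = 0.000787). Muc16, which encodes a large transmembrane mucin, had 179 counts in the UCPRP libraries together and 0 in the Control libraries, which makes it at least 19-fold higher against 3 counts per library. The membrane mucin Muc1 rose (1.76), Muc15 fell (-1.52), and Muc4 stood at 2770, 2460 and 2930 CPM in UCPRP against 2780, 2980 and 3210 CPM in Control (-0.14, adjusted p = 0.685).

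**Figure D2:**
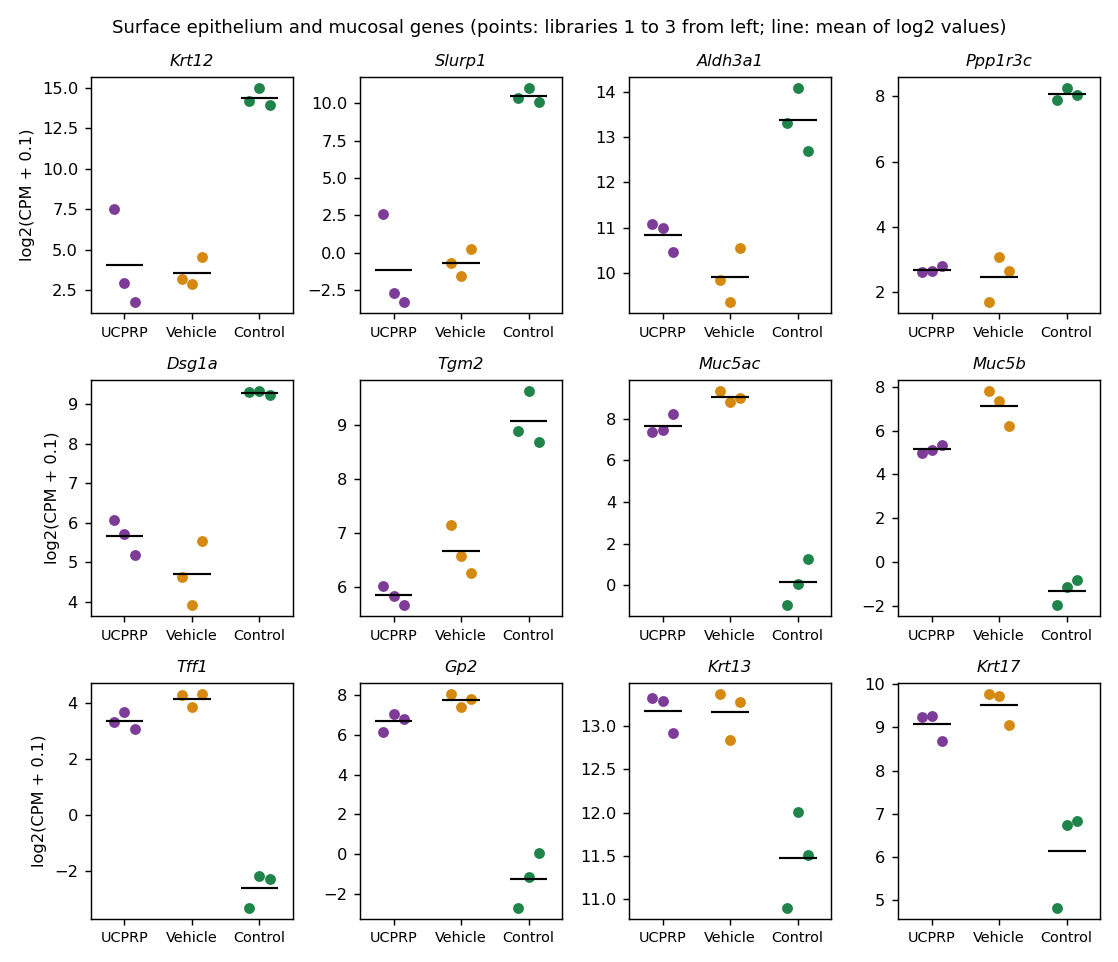
Each panel shows log2 of CPM plus 0.1 for a gene of the surface epithelium or the mucosa in the 3 libraries of UCPRP, Vehicle and Control, with a line at the mean of the log2 values and an axis of its own. Krt12, Slurp1, Aldh3a1, Ppp1r3c, Dsg1a and Tgm2 lie below Control in every UCPRP library, and Muc5ac, Muc5b, Tff1, Gp2, Krt13 and Krt17 lie above it.

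Some keratins of mucosal and wounded epithelium were higher and others were not called. Krt13, a keratin of mucosal epithelium, had 10200, 10000 and 7710 CPM in UCPRP, 10600, 7290 and 9920 CPM in Vehicle, and 1910, 4130 and 2930 CPM in Control (log2 fold change of UCPRP over Control 1.64, SE 0.28, adjusted p = 0.00395). UCPRP and Vehicle overlapped, with a difference of 0.01 (SE 0.28). Of 11 basal and wound keratins 5 rose and 1 fell (54.5%, against 10.4% of all genes), and 3 rose without UCPRP replicate 1 or 2 or Control replicate 1 or 3. Krt14, a keratin of basal cells, had 3230, 3120 and 2790 CPM in UCPRP, 5810, 4810 and 3640 CPM in Vehicle, and 495, 859 and 867 CPM in Control (2.04, adjusted p = 0.000986). Krt17, a keratin of wounded epithelium, had 609, 618 and 414 CPM in UCPRP and 27.9, 106 and 114 CPM in Control (2.73, adjusted p = 0.00533). Krt5, the usual partner of Krt14, was the member that fell (-1.12, adjusted p = 0.0196). The wound keratins Krt6a (-0.35), Krt6b (-0.26) and Krt16 (1.55) were not called. Keratin genes are close relatives, and reads divided between them make single values uncertain.

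Transcription factors of the epithelium changed in both directions, with 4 of 25 higher and 5 lower (36%, against 10.4% of all genes), and with 2 to 3 lower on leaving out any of the 6 libraries. Pitx1, a homeobox factor, had 16.2, 24.9 and 23.4 CPM in UCPRP and 1.44, 1.78 and 4.35 CPM in Control (3.08, adjusted p = 0.00316, and 3.74 without Control replicate 3), and Foxc2, a forkhead factor, rose by 1.82. Pax6, the master regulator of eye development, had 528, 454 and 459 CPM in UCPRP, 440, 381 and 445 CPM in Vehicle, and 640, 705 and 622 CPM in Control (-0.45, SE 0.13, adjusted p = 0.0433). Every UCPRP library was below every Control library and above every Vehicle library, but the call against Control was lost on leaving out any of the 6 libraries (adjusted p up to 0.155 over the alternatives). Among 13 genes of limbal progenitors 3 rose and 2 fell (38.5%), and 1 fell without UCPRP replicate 1 or 2 or Control replicate 1 or 2. Gpha2, a glycoprotein hormone subunit made at the limbus, had 102, 101 and 92.4 CPM in UCPRP and 34, 49.8 and 41.3 CPM in Control (1.24), while the drug efflux transporter Abcg2 fell (-0.97). Of 23 genes of the cornified envelope 3 rose and 4 fell (30.4%), and 2 fell without UCPRP replicate 2 or 3. Sprr3 had 103 counts in UCPRP and 0 in Control, at least 11.1-fold higher, and Cdsn, which encodes corneodesmosin, fell by 3.67. Krt10, a keratin of keratinized skin, had 10.4, 21.5 and 18.4 CPM in UCPRP and 9.17, 12.3 and 9.63 CPM in Control (0.69, adjusted p = 0.216).

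Interferon-stimulated genes were the list with the largest number of calls, and all were losses. These genes encode antiviral enzymes and sensors and are switched on by interferons through factors that bind repeated GAAA elements. Of 30 tested members 21 fell and 0 rose (70% called, against 10.4% of all genes), with a median of -1.25. In 27 of the 30 the UCPRP and Control ranges did not overlap, where 28.2% of all genes had no overlap. The summed level was 1406 to 1950 CPM in UCPRP, 2164 to 2777 CPM in Vehicle and 2891 to 4633 CPM in Control. In Vehicle 16 of the 30 fell and 1 rose against Control (median -0.74). The means of 28 of the 30 were lower in UCPRP than in Vehicle, where 44.7% of all genes had the lower mean, with a median difference of -0.49. By edgeR no member passed the direct test.

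The promoters of Isg15, Oas3 and Rsad2 are shown because these genes carry the pattern and each holds the element. They run from 250 bases before to 50 bases after the start, 5′ to 3′ on the minus strand of GRCm38.p6 as RefSeq gives them, at chr4:156200769-156201068 for Isg15, chr5:120777610-120777909 for Oas3 and chr12:26456403-26456702 for Rsad2. Capitals mark 2 copies of GAAA with any 2 bases between them, on either strand (the other strand in Rsad2), with 3 overlapping matches 78 to 57 bases before the start in Isg15, 1 match 75 to 66 bases before it in Oas3 and 1 match 120 to 111 bases before it in Rsad2.
Isg15: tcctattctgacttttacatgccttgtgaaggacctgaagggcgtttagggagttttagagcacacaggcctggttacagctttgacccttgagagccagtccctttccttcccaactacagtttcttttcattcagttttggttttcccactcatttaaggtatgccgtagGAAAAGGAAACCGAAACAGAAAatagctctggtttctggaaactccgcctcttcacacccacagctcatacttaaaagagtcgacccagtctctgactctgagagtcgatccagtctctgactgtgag
Oas3: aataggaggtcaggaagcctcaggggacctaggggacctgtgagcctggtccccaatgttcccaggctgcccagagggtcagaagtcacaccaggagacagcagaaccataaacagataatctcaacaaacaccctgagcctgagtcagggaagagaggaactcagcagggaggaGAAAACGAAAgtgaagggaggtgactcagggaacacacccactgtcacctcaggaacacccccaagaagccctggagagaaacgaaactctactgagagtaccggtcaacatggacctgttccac
Rsad2: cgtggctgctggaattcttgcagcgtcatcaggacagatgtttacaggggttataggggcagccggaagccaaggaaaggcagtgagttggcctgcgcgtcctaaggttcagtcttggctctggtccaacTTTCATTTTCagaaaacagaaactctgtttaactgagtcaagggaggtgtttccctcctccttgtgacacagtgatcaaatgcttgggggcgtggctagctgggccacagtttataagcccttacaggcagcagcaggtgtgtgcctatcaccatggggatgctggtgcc
The letters stood in 14 of the 26 windows (53.8%) of the 23 list genes that had a window, and in 3.13% of the windows of all genes tested, of which 12704 had a window. Among genes called lower the share was 6.21%, and among genes called higher 4.4%. For TGANTCA, the AP-1 letters, the shares were 8.65% among genes called lower, 8.93% among genes called higher and 5.83% among all.

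Isg15, a ubiquitin-like protein, had 38.5, 23.4 and 45 CPM in UCPRP, 53.2, 42.8 and 57 CPM in Vehicle, and 119, 179 and 92.3 CPM in Control. Its log2 fold change of UCPRP over Control was -1.87 (SE 0.28, adjusted p = 0.00181). Oas3, which makes the activator of RNase L, had 22.9, 14.1 and 28.1 CPM in UCPRP, 41.8, 31.2 and 26.3 CPM in Vehicle, and 96.9, 112 and 67.6 CPM in Control (-2.09, SE 0.29, adjusted p = 0.00121). Both genes were below Control in every UCPRP library, and both overlapped with Vehicle.

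Rsad2, which encodes the antiviral enzyme viperin, was lower in every UCPRP library than in every Vehicle and Control library, while Vehicle and Control overlapped. It had 5.01, 4.16 and 5.6 CPM in UCPRP, 22.5, 11.2 and 10.7 CPM in Vehicle, and 23.1, 49.3 and 13.9 CPM in Control (UCPRP over Control -2.54, SE 0.43, adjusted p = 0.00359, and -1.94 without Control replicate 2). Against Vehicle the difference was -1.58 (SE 0.42, adjusted p = 0.337 by edgeR and 0.0291 by DESeq2). Vehicle over Control was -0.96 (adjusted p = 0.143). Ifi27l2a, a small mitochondrial interferon-induced protein, had 16.7, 9.5 and 12.4 CPM in UCPRP, 14.5, 15.1 and 17.4 CPM in Vehicle, and 72.4, 93.4 and 71.7 CPM in Control (-2.62, adjusted p = 6.11e-05), so that UCPRP and Vehicle stood together. The member with a higher mean in UCPRP than in Control was Ifitm3, a membrane protein that blocks viral entry (0.46, adjusted p = 0.281).

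Some genes of cholesterol synthesis also fell. These genes are driven by SREBP2, which is released when sterols in the cell are low. Of 20 tested genes 9 fell and 0 rose (45% called, against 10.4% of all genes, median -0.52), 19 had a lower mean in UCPRP than in Control, and in Vehicle 3 fell and 1 rose (median -0.27). Hmgcs1, which makes the precursor of mevalonate, had 248, 240 and 252 CPM in UCPRP, 436, 330 and 267 CPM in Vehicle, and 371, 591 and 477 CPM in Control (log2 fold change of UCPRP over Control -0.96, SE 0.20, adjusted p = 0.01). The UCPRP libraries were below all others and nearly equal, while Vehicle overlapped with Control. Insig1, which holds SREBP2 back, fell by 1.04, and Sqle, squalene epoxidase, by 0.69, a call lost without UCPRP replicate 2 or 3 or Control replicate 2. The number of genes that fell was 3 without UCPRP replicate 2, 4 without UCPRP replicate 3, and 5 without Control replicate 2 or 3.

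**Figure D3:**
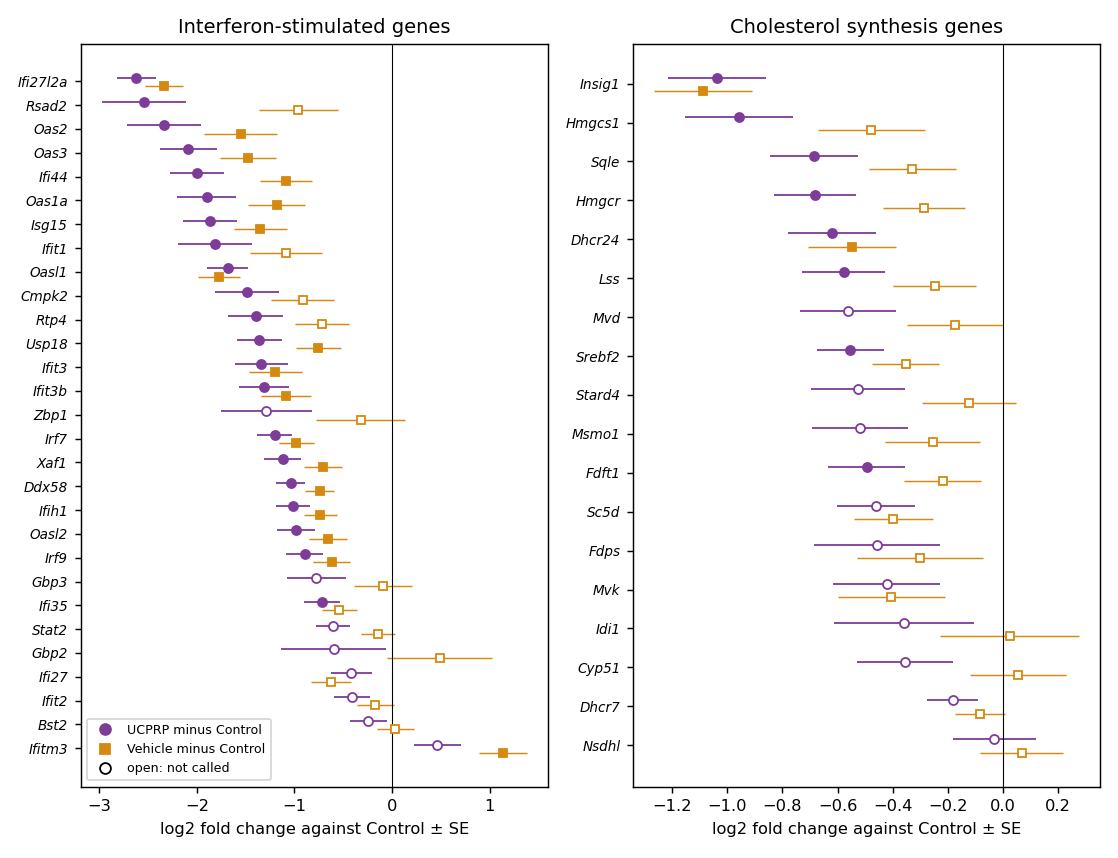
Points are log2 fold changes against Control with bars of 1 SE for 29 of the 30 interferon-stimulated genes tested (left) and 18 of the 20 cholesterol genes tested (right), in circles for UCPRP and squares for Vehicle, with open symbols where the gene was not called. UCPRP values lie below 0 for all but Ifitm3 of the genes drawn, and for 19 of the 20 cholesterol genes tested, and the UCPRP and Vehicle values share the Control libraries.

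Some inflammatory mediators were higher in UCPRP than in Control. Of 37 tested cytokine and receptor genes 7 rose and 2 fell in UCPRP against Control (24.3% called, against 10.4% of all genes, median 0.51). In Vehicle 22 rose and 1 fell (median 1.24). The means of 35 of the 37 were lower in UCPRP than in Vehicle, where 44.7% of all genes had the lower mean. The median difference was -0.71, and none of the 37 passed the direct test by edgeR. Leaving out any of the 6 libraries brought the 7 rises to between 2 and 4, and 5.3% of all genes were called higher with no library left out. Csf3, which encodes the granulocyte growth factor, had 10.1, 4.47 and 4.52 CPM in UCPRP, 36.1, 14.7 and 5.82 CPM in Vehicle, and 0.412, 0.534 and 0.673 CPM in Control (log2 fold change of UCPRP over Control 3.54, SE 0.78, adjusted p = 0.0142), and the call was lost by limma-voom and without Control replicate 1 or 2. Il10ra, a chain of the receptor for the anti-inflammatory interleukin IL-10, rose by 1.51, and Il20rb, a receptor chain for related interleukins, fell by 1.62.

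Il1b, the interleukin 1 beta precursor, had 11.9, 9.45 and 6.68 CPM in UCPRP, 113, 97.1 and 7.56 CPM in Vehicle, and 0.566, 1.6 and 1.86 CPM in Control. Every UCPRP library was above every Control library, and Vehicle replicate 3 lay within the UCPRP range while the other Vehicle libraries were far above. The log2 fold change of UCPRP over Control, 2.80 (SE 1.05, adjusted p = 0.129), did not pass the test, nor did that of UCPRP over Vehicle, -2.96 (SE 0.92, adjusted p = 0.359). Against Control it passed with DESeq2 and with only the UCPRP and Control groups in the fit. Tnf had 15.6, 19.3 and 9.2 CPM in UCPRP and 15.6, 25.9 and 26.5 CPM in Control (-0.63, adjusted p = 0.312). Il6 had 1 count in the UCPRP libraries together, 38 in Vehicle and 2 in Control, and was not tested.

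Of 37 chemokine genes and receptors 11 rose and 0 fell (29.7% called, against 10.4% of all genes, median 1.13), against 22 and 0 in Vehicle (median 1.76). Without UCPRP replicate 3 there were 6 rises and without Control replicate 1 there were 7. Cxcl5, a chemokine that attracts neutrophils, had 40.1, 28.3 and 29.6 CPM in UCPRP, 233, 214 and 50.7 CPM in Vehicle, and 3.97, 8.84 and 3.83 CPM in Control. The 3 groups did not overlap, though the call against Control missed the threshold without Control replicate 1 or 3 (adjusted p up to 0.0524). UCPRP over Control was 2.57 (SE 0.54, adjusted p = 0.0115), and UCPRP over Vehicle was -2.35 (SE 0.51, adjusted p = 0.331 by edgeR and 0.00328 by DESeq2). Cxcl17, a mucosal chemokine, had 11.7, 17.1 and 15 CPM in UCPRP, and 0.0515, 0.0593 and 2.17 CPM in Control (4.22, adjusted p = 0.00565), and without Control replicate 3 its log2 fold change was 7.89. The chemokine receptor Ccr7, which guides dendritic cells to lymph nodes, rose by 2.60 but stood at only 1.39 to 3.34 CPM in UCPRP, and its call was lost without UCPRP replicate 3 or Control replicate 1 or 3.

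Neutrophil genes showed the widest gap between injured groups. Of 13 tested, 7 rose in UCPRP (53.8% called, against 10.4% of all genes, median 2.33) and 12 rose in Vehicle (median 4.71). In 12 of the 13 the mean was lower in UCPRP than in Vehicle (median difference -2.20), as it was in 44.7% of all genes. The summed level was 377.8 to 512.5 CPM in UCPRP, 871.3 to 1684 CPM in Vehicle and 50.41 to 153.8 CPM in Control. That sum follows the most abundant members of the list, and the 2 genes described next are a small part of it. S100a8, a calcium-binding protein that fills neutrophils, had 7.58, 6.42 and 2.47 CPM in UCPRP, 48.8, 55.2 and 6.33 CPM in Vehicle, and 0.257, 0.356 and 0.414 CPM in Control (UCPRP over Control 3.98, SE 1.06, adjusted p = 0.0346). Clec4d, a lectin receptor of myeloid cells, had 5.71, 5.75 and 5.19 CPM in UCPRP, 28.7, 30 and 5.77 CPM in Vehicle, and 0.566, 0.652 and 0.828 CPM in Control (3.01, adjusted p = 0.00896). In both genes Vehicle replicate 3 lay at or next to the UCPRP libraries and the other Vehicle libraries far above. Those other Vehicle libraries, replicates 1 and 2, are also the ones with low Dbp (14.7 and 25.9 CPM). By limma-voom 2 of the 13 neutrophil genes rose, in place of 7, and 3 or 4 rose on leaving out any of the 6 libraries. S100a8 lost its call by limma-voom and without UCPRP replicate 1 or 2 or any Control library, and Clec4d lost its call by limma-voom (adjusted p = 0.179).

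Macrophage genes were raised against Control more evenly. Of 31 tested 17 rose and 0 fell (54.8% called, against 10.4% of all genes, median 1.02), against 25 and 0 in Vehicle (median 1.68), and their summed level was 2883 to 3266 CPM in UCPRP, 3083 to 4111 CPM in Vehicle and 1825 to 2413 CPM in Control. Lyz2, lysozyme of myeloid cells, had 312, 344 and 333 CPM in UCPRP, 482, 411 and 375 CPM in Vehicle, and 58.9, 110 and 89.3 CPM in Control (log2 fold change of UCPRP over Control 1.94, SE 0.27, adjusted p = 0.00113). Ms4a7 (1.57), Fcgr3, an antibody receptor (1.56), and Trem2, a lipid receptor (1.83), rose too. Trem2 stood at 18.7, 14.6 and 12.6 CPM in UCPRP and at 18.1, 12.8 and 18.2 CPM in Vehicle, so those groups overlapped, with 3.09, 4.98 and 4.82 CPM in Control. Cd14, the lipopolysaccharide co-receptor, had 12.3, 11 and 10.8 CPM in UCPRP, 48.8, 40.4 and 11.4 CPM in Vehicle, and 3.19, 5.34 and 6.68 CPM in Control (1.17, adjusted p = 0.161).

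Complement genes rose in 11 of 21 cases with 0 falling (52.4% called, against 10.4% of all genes, median 0.94). Itgb2, the common chain of the leukocyte integrins and complement receptors, had 15.6, 14.6 and 14.4 CPM in UCPRP, 37.4, 33 and 17.9 CPM in Vehicle, and 3.66, 4.45 and 5.02 CPM in Control (1.76, adjusted p = 0.00487). The anaphylatoxin receptors C3ar1 (1.41) and C5ar1 (1.90) rose as well, C5ar1 not by limma-voom and not without Control replicate 2. Of 21 genes of antigen presentation and dendritic cells 6 rose (28.6% called, median 0.85) and 1 without UCPRP replicate 3, 2 without Control replicate 3, and 3 without UCPRP replicate 2 or Control replicate 1. Itgax, an integrin of dendritic cells, was among them (1.5), and H2-Ab1, an MHC class II chain, stood at 72.5, 78.3 and 78.2 CPM in UCPRP and 25.4, 53.8 and 38.7 CPM in Control (0.96, adjusted p = 0.127). Of 20 antimicrobial genes 10 rose and 3 fell (65%), with 6 rising without any 1 of the Control libraries and 1 falling without UCPRP replicate 2 or 3 or Control replicate 2. Saa3, an acute phase protein, had 17.2, 11.9 and 3.6 CPM in UCPRP, 96.5, 61.6 and 3.73 CPM in Vehicle, and 0.206, 0.178 and 0.311 CPM in Control (5.50, adjusted p = 0.0495), a call lost without any 1 of the 6 libraries. Reg3g, an antibacterial lectin, had 58 counts in UCPRP, 671 in Vehicle and 2 in Control (UCPRP over Control adjusted p = 0.0672). Of 22 pattern recognition genes 5 rose (22.7% called), and 2 or 3 on leaving out any of the 6 libraries, with Tlr8, an endosomal RNA sensor, at 2.17. Of 19 T, NK and B cell genes 0 were called, and of 7 mast cell and eosinophil genes only Kit, the stem cell factor receptor, was called (-1.49).

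**Figure D4:**
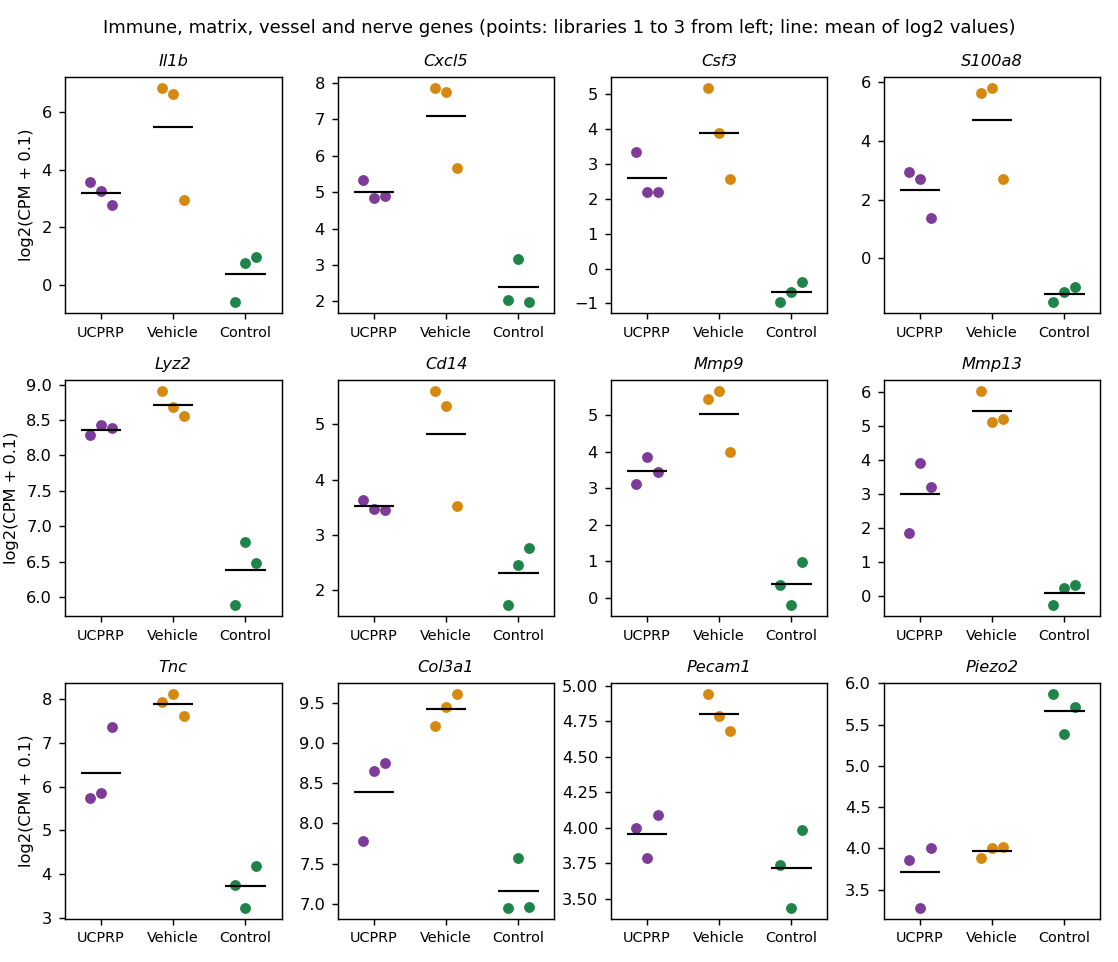
Each panel shows log2 of CPM plus 0.1 for an immune, matrix, vessel or nerve gene in the 3 libraries of UCPRP, Vehicle and Control, with a line at the mean of the log2 values and an axis of its own. In Il1b, Cxcl5, Csf3, S100a8, Cd14, Mmp9, Tnc and Col3a1 the UCPRP mean lies between those of Vehicle and Control, and in Piezo2 UCPRP and Vehicle lie together below Control.

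Some matrix and protease genes were higher in UCPRP than in Control. Of 28 proteases and inhibitors 12 rose and 1 fell (46.4%, against 10.4% of all genes, median 0.76), against 19 and 1 in Vehicle (median 1.46). Mmp13, a collagenase, had 3.47, 14.8 and 9.1 CPM in UCPRP, 65.2, 34.4 and 36.6 CPM in Vehicle, and 0.721, 1.07 and 1.14 CPM in Control (log2 fold change of UCPRP over Control 3.22, SE 0.62, adjusted p = 0.00688). Mmp9, a gelatinase, had 8.48, 14.4 and 10.8 CPM in UCPRP, 43.5, 50.6 and 15.8 CPM in Vehicle, and 1.18, 0.771 and 1.86 CPM in Control (3.13, adjusted p = 0.00668). In both genes the 3 groups formed separate ranges. By limma-voom the calls were lost (adjusted p = 0.0937 for Mmp13 and 0.0882 for Mmp9), and 8 genes of the list rose. Against Vehicle the differences were -2.31 (SE 0.52, adjusted p = 0.331 by edgeR and 0.00516 by DESeq2) for Mmp13 and -1.70 (SE 0.51, adjusted p = 0.359 by edgeR) for Mmp9. Timp1, an inhibitor of these enzymes, rose by 2.80.

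Of 29 wound matrix genes 10 rose and 2 fell (41.4%, against 10.4% of all genes, median 0.51), with 5 rising without Control replicate 1 and 6 without any other library but UCPRP replicate 2. Tnc, which encodes tenascin C of healing tissue, had 53.2, 57.8 and 164 CPM in UCPRP, 245, 279 and 197 CPM in Vehicle, and 13.3, 9.25 and 18.1 CPM in Control (2.75, SE 0.49, adjusted p = 0.00451). UCPRP replicate 3 was well above the other UCPRP libraries, and without it the log2 fold change was 2.03. Thbs2, a matricellular thrombospondin, rose by 1.75, and Tgm2, tissue transglutaminase, fell to 65.1, 57.4 and 50.7 CPM in UCPRP, against 142, 94.9 and 76.7 CPM in Vehicle and 474, 791 and 412 CPM in Control (-3.28, SE 0.30, adjusted p = 0.000139). Of 25 collagen genes 5 rose and 1 fell (24%), with 2 rising without UCPRP replicate 3 and 3 without UCPRP replicate 2 or Control replicate 3. Col3a1, a fibrillar collagen, had 219, 402 and 431 CPM in UCPRP, 596, 702 and 787 CPM in Vehicle, and 123, 189 and 124 CPM in Control (1.27, adjusted p = 0.0305), a call lost without UCPRP replicate 2 or 3 or Control replicate 1 or 3. Of 15 keratocyte genes 1 rose and 1 fell (13.3%, against 10.4% of all genes). Lum, lumican, rose (1.03), not without UCPRP replicate 2 or 3 or Control replicate 3, and Aldh3a1, described above, fell. Kera, keratocan, had 97.1, 190 and 124 CPM in UCPRP and 371, 300 and 198 CPM in Control (-1.08, adjusted p = 0.0648). Of 24 genes of TGF-beta signalling and mesenchymal transition 5 rose (3 without Control replicate 1) and 1 fell, or 25% called. The receptor Tgfbr2 (0.71) and the factors Snai1 and Snai2 (0.81 each) were higher and Tgfbr1 (-0.80) was lower.

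**Figure D5:**
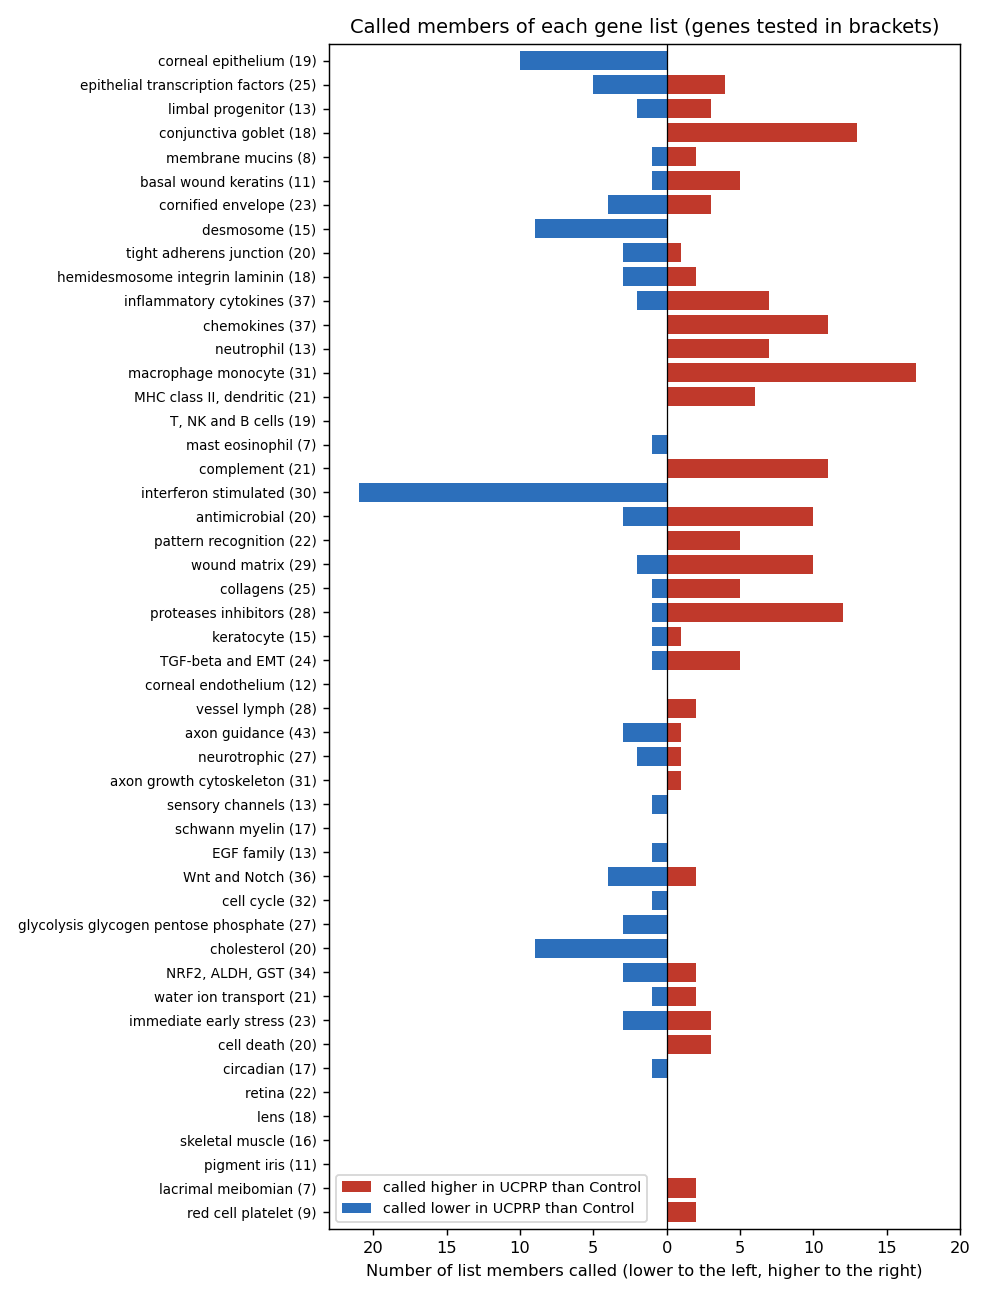
Bars give, for each gene list, the number of tested members called lower (blue, left) and higher (red, right) in UCPRP than in Control, with the number tested in brackets. The longest bars are the 21 interferon-stimulated genes that fell and the 17 macrophage genes that rose, and 5.3% of all genes tested were called higher and 5.07% lower.

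Vessel genes were called about as often as all genes. Of 28 vessel genes 2 rose and 0 fell (7.14% called either way, against 10.4% of all genes, median 0.25), 0 rose without UCPRP replicate 1 or Control replicate 2, and 9 rose in Vehicle. Pecam1, an adhesion molecule of endothelial cells, had 15.9, 13.7 and 16.9 CPM in UCPRP, 30.7, 27.5 and 25.5 CPM in Vehicle, and 13.2, 10.7 and 15.7 CPM in Control. UCPRP overlapped with Control (0.23, SE 0.15, adjusted p = 0.389) and lay below every Vehicle library (-0.85, SE 0.15, adjusted p = 0.331 by edgeR and 0.000608 by DESeq2). The corneal endothelium list had 0 of 12 called (median 0.03), and its collagen Col8a2 had 327, 343 and 284 CPM in UCPRP and 308, 336 and 288 CPM in Control. Of 32 cell cycle genes 1 was called (3.12%), the cyclin-dependent kinase inhibitor Cdkn1a, and it was lower (-1.19). Mki67, a marker of dividing cells, had 77.2, 45 and 50 CPM in UCPRP, 158, 125 and 52.7 CPM in Vehicle, and 81.2, 62.6 and 142 CPM in Control (-0.73, adjusted p = 0.308). Myc, a transcription factor of cell growth, rose to 40, 35.7 and 39.9 CPM in UCPRP, against 35, 33.1 and 27.5 CPM in Vehicle and 12.7, 17.9 and 12.3 CPM in Control (1.43, adjusted p = 0.000282). Of 36 Wnt and Notch genes 2 rose and 4 fell (16.7%, against 10.4% of all genes), and the median of the list was 0.004. Wnt3a (-2.76) and the antagonist Dkk1 (-1.24) were among the lower genes. The call of Dkk1 was lost without UCPRP replicate 1 or 3 or Control replicate 2, and 1 gene of the list rose without UCPRP replicate 2 or 3 or any Control library.

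Of the nerve lists, sensory channels had 7.69% of genes called, axon growth 3.23%, neurotrophic genes 11.1% and axon guidance 9.3%, against 10.4% of all genes. Piezo2, the mechanosensitive channel of touch neurons, had 14.4, 9.6 and 15.9 CPM in UCPRP, 14.7, 15.9 and 16.1 CPM in Vehicle, and 58.6, 41.9 and 52.5 CPM in Control (log2 fold change of UCPRP over Control -1.94, SE 0.19, adjusted p = 0.000174). It was the only call among 13 sensory channels and peptides, and which cells carried it was not tested. Of 31 axon growth and neuronal cytoskeleton genes 1 was called, Gap43, the growth cone protein, with 6.99, 11.7 and 10.9 CPM in UCPRP and 5.05, 4.39 and 6.16 CPM in Control (0.92, adjusted p = 0.0455). All 31 had a higher mean in UCPRP (median 0.41), as did all 22 retina genes, of which 0 were called (median 0.59), and the part of retinal RNA in the neuronal genes was not tested. With retina share as a covariate the difference in Gap43 was 0.72. The call of Gap43 was lost without any 1 of the 6 libraries other than UCPRP replicate 1. Tubb3, a neuronal tubulin, had 8.27, 17.2 and 22.5 CPM in UCPRP and 8.81, 4.45 and 9.53 CPM in Control (1.07, adjusted p = 0.101, and 0.70 and 0.0256 with retina share as a covariate). Among 27 neurotrophic genes Ntf3 (-0.93) and Artn (-1.19), both nerve survival factors, fell and the receptor Ntrk3 (0.77) rose, and each of the 3 lost its call without UCPRP replicate 2 or 3. Of 43 axon guidance genes 1 rose, Ephb2 (0.56), and 3 fell. Of 17 Schwann cell genes 0 were called.

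Markers of other tissues gave 0 calls among 22 retina, 18 lens, 16 skeletal muscle and 11 pigment genes. The lens crystallin Cryaa had 1630, 112 and 15000 CPM in UCPRP and 3840, 203 and 7160 CPM in Control, so that it varied between pools of a group far more than between groups. Of 9 red cell and platelet genes 2 rose, and both are chemokines. Ppbp had 175, 409 and 99.1 CPM in UCPRP, 613, 575 and 337 CPM in Vehicle, and 0.463, 1.3 and 3.11 CPM in Control (7.12, SE 0.70, adjusted p = 0.000192, and 6.39 to 8.03 on leaving out UCPRP replicate 2 or Control replicate 3), and Pf4 rose by 1.81. The platelet receptor genes Itga2b (-0.14) and Gp1ba (-0.13) were not called. Of 7 lacrimal and meibomian genes 2 rose and the other 5 were not called. The secretoglobin Scgb2b2 had 171 counts in UCPRP and 0 in Control, at least 18.1-fold higher. Scgb1b2, a related gene, had 59 counts in UCPRP and 0 in Control, at least 6.28-fold higher.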

How the data were processed

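Total RNA of whole corneas was extracted with a Qiagen RNeasy kit and made into libraries with the TruSeq Stranded Total RNA kit, per the labels' protocols. Reads were aligned with HISAT to GRCm38, per the submitters' processing notes. The sources used here do not give how reads were counted, on which annotation or whether by strand. The deposited table holds estimated counts, per the file headers, of which 64.9% are whole. They were rounded to whole numbers. Where a gene has near-identical copies (keratins, desmogleins, Sprr2, Oas1, secretoglobins) its reads may have been divided between them, and antisense partners cannot be told apart.

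Genes were filtered with edgeR's filterByExpr (minimum count 10), scaled by TMM and tested by edgeR 4.0.16 (R 4.3.3) quasi-likelihood fits over all 12 libraries with 1 term per group, and p-values were adjusted by Benjamini-Hochberg over the 16124 genes tested. A call is an adjusted p under 0.05. SE was taken as the size of the log2 fold change over the root of the F statistic. CPM are scaled by TMM. The alternatives were DESeq2 1.42.0, limma 3.58.1 (voom), other scalings and filters, covariates, a replicate block and leaving out each library. The scripts were tested on simulated counts. Same-numbered UCPRP and Control libraries deviated together with correlations of -0.214, -0.0608 and 0.365, so the numbers were not taken as pairs.

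Genes were named by rule: the 10 largest called changes each way with at least 5 CPM and no overlap, a list of marker genes, and up to 4 called members of each of the gene lists. Dbp, Krt5, Krt6a, Krt6b, Krt16, Ifitm3, Itga2b and Gp1ba were added after their values were seen. The members and lists were chosen with earlier results of these data known. Some members of the lists are counted but not reported here by name. Bounds and intervals cover counting error only. Promoter windows came from RefSeq (GRCm38.p6), matched by gene for 12704 genes tested.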

Additional observations from a re-analysis of the deposited data

How the results depend on the processing

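The numbers of genes that differed between UCPRP and Control (854 higher, 817 lower) held within 1.5 times under other scalings, filters and tests, except that the fit of only the UCPRP and Control groups called 532 lower, and the fit of the 8 libraries with high Dbp, chosen after seeing the data, called 474 higher and 535 lower. Leaving out 1 library gave 513 to 647 higher, lowest without Control replicate 1 and also low without UCPRP replicate 3 (517) or 2 (559), and 450 to 752 lower, lowest without UCPRP replicate 2 and then UCPRP replicate 3 (481). The split was 829 higher and 853 lower with DESeq2's factors, 945 and 849 with upper-quartile factors, and 801 and 1041 with a minimum count of 50. Against Vehicle, DESeq2 called 6 higher and 139 lower in place of 0, and leaving out 1 library gave 0 to 19 higher and 0 to 176 lower, the highest without Vehicle replicate 3. The cause was not tested.

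With the replicate number as a block, 717 genes were higher and 685 lower than Control, and 0 differed from Vehicle each way. The numbers do not pair the libraries. Of 143 called genes among those the naming rule gave, 83 kept their call in every alternative in which they were tested (16 or 17), 60 lost it in at least 1, and 0 changed direction. Genes near 0.154 to 0.178 CPM in Control, the level of 3 counts, are limited by counting error.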

Other observations

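Of 34 genes of the NRF2 response, aldehyde dehydrogenases and glutathione transferases 2 rose and 3 fell (14.7%, against 10.4% of all genes). On leaving out 1 library as few as 1 rose, as without UCPRP replicate 1 or 3 or Control replicate 1 or 3, and as few as 1 fell, as without UCPRP replicate 2 or 3 or Control replicate 2. Hmox1, heme oxygenase, had 27.5, 26.1 and 25.6 CPM in UCPRP, 53.1, 49.2 and 31.4 CPM in Vehicle, and 14.7, 17.7 and 12.2 CPM in Control (log2 fold change of UCPRP over Control 0.83, adjusted p = 0.0256). Its call was lost without any 1 of the UCPRP libraries or without Control replicate 1 or 3 (adjusted p up to 0.0887). Prdx6, a peroxiredoxin, fell by 0.78, a call lost without UCPRP replicate 2 or 3 or Control replicate 2. Of 20 cell death genes 3 rose and 0 fell (15%). Casp1, the inflammasome protease, had 22.2, 23.1 and 20.9 CPM in UCPRP, 31.4, 24.3 and 20.1 CPM in Vehicle, and 2.42, 4.8 and 6.32 CPM in Control (2.29, adjusted p = 0.000922). UCPRP and Vehicle overlapped, and both lay above Control.

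Of 21 water and ion transport genes 2 rose and Aqp5 fell (14.3%), and 1 rose without UCPRP replicate 2 or 3 or Control replicate 1 or 3. Car12, a membrane carbonic anhydrase, had 98.1, 102 and 129 CPM in UCPRP, 260, 210 and 147 CPM in Vehicle, and 21.6, 23.7 and 33.2 CPM in Control (2.06, adjusted p = 0.000366). The 3 groups formed separate ranges with UCPRP in the middle. Of 13 EGF family genes 1 was called (7.69%), Hbegf, a growth factor of epithelial wounds (-0.97, adjusted p = 0.021). That call was lost without UCPRP replicate 2 or 3 or Control replicate 2, in the fit of only the 2 groups and with only the 8 libraries of high Dbp (adjusted p up to 0.0816).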
